A study of Homo sapiens with 12 samples.

Results

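Transcript levels in HEK293T cells treated with bafilomycin A1 after loading with iron were compared with those in cells given bafilomycin A1 without added iron. The comparison rests on 6 of the 12 libraries of the series, 3 labelled FAC+BafA1 and 3 labelled BafA1. Of 19550 protein-coding entries in the deposited table, 11206 had a mean of at least 1 FPKM (fragments normalised to transcript length and library size) in each of the 2 groups and were compared. HEK293T is an established human line from embryonic kidney, with the large T antigen of SV40. The cells of all groups were wild type and were grown in RPMI medium with 10% fetal bovine serum. FAC+BafA1 cells were kept for 24 h in 0.1 mg/ml FAC, the iron source ferric ammonium citrate, and then with bafilomycin A1 (BafA1) at 10 nM for 24 h. BafA1 cells had the same 24 h with BafA1 and no added iron. Another 6 libraries, 3 labelled control (neither agent) and 3 labelled FAC (iron alone), served as references for the level of each gene. The labels number the replicates and do not say whether they came from separate cultures, so p-values measure the spread between these libraries, which may be technical.

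BafA1 blocks the V-ATPase, the proton pump that acidifies endosomes and lysosomes. Cells take up iron mainly as ferric iron bound to transferrin, which the transferrin receptor carries into endosomes. The acid there frees the iron, which is reduced and moved into the cytosol by the transporter encoded by SLC11A2. Acid lysosomes also break down ferritin and so return stored iron. Iron in the cytosol and mitochondria is built into heme and iron-sulfur clusters and serves the prolyl hydroxylases that mark hypoxia-inducible factors (HIF) for breakdown. The comparison asked how transcript levels under BafA1 differ when cells have been supplied with iron beforehand.

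Libraries of the same group correlated at 0.996 to 0.997 (Pearson, log2 values over genes) and those of the 2 groups at 0.968 to 0.971. Of 8 markers of HEK293 cells, 6 reached 1 FPKM in both groups, while PAX2 and LHX1, renal developmental factors, were at 0.363 and 0.53 FPKM in BafA1 and 0.513 and 0.68 in FAC+BafA1. The 8 markers of keratinocytes or HeLa cells summed to 0.8 to 1.35 FPKM in BafA1 libraries and 0.39 to 0.73 in FAC+BafA1 libraries, with TP63, KRT16 and S100A8 at 0 in all libraries of both groups and KRT5 and KRT14 also in FAC+BafA1. The 10 blood markers summed to 2.18 to 3.45 and 3.44 to 3.97 FPKM, and the 8 fibroblast markers to 3.38 to 4.05 and 6.15 to 8.79 FPKM, mostly COL1A1; MS4A1, HBB and COL1A2 were at 0 throughout. The part of the last 2 marker sums in the results was not tested. The FPKM of all entries summed to 600261 to 604483 in BafA1 libraries and 634935 to 637999 in FAC+BafA1 libraries; read depth is not given in the sources used here. Mitochondrially encoded genes held 2.46% to 3.09% of that sum in BafA1 and 1.71% to 2.23% in FAC+BafA1. Another difference between libraries with and without FAC lay in which entries held values. Over all gene types, 627 entries were listed at 0 throughout the 6 libraries with FAC and reached 1 FPKM in each of the 6 without, or the reverse, 32 of them protein coding and 31 of these sharing exon sequence with another gene. This split is the same as the one between the groups compared here, so for such entries it cannot be told apart from an effect of iron. FAC and control libraries are parted by the same split, and between them 1.95% of the 11206 genes differed at an adjusted p under 0.05, at a median absolute log2 difference of 0.05.

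Most genes differed between the groups, the greater part of them by small steps. At an adjusted p under 0.05 (limma, 12 libraries in 1 fit, adjusted over 13704 entries), 7519 genes (67.1%) were called, 4303 higher (38.4%) and 3216 lower (28.7%) in FAC+BafA1. The median absolute difference was 0.26 and the median difference 0.05 on the log2(FPKM + 1) scale, on which all log2 values here are given. A change of at least 1 log2 unit was called for 86 genes upward (0.767%) and 176 downward (1.57%). The count upward rose to 198 with a pseudocount of 0.1 and 156 with no filter on low values, and was 49 among genes of at least 5 FPKM. The library values of the groups did not overlap for 7938 genes (70.8%). Of genes with no exon shared with another gene 67.7% were called, and of the others 66.6%. With median-of-ratios scaling the calls split evenly, with 49.1% of them higher against 57.2% here, while the median moved to -0.01. In RNA of a whole culture, fewer cells that express a gene and less RNA per cell cannot be told apart.

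**Figure D1:**
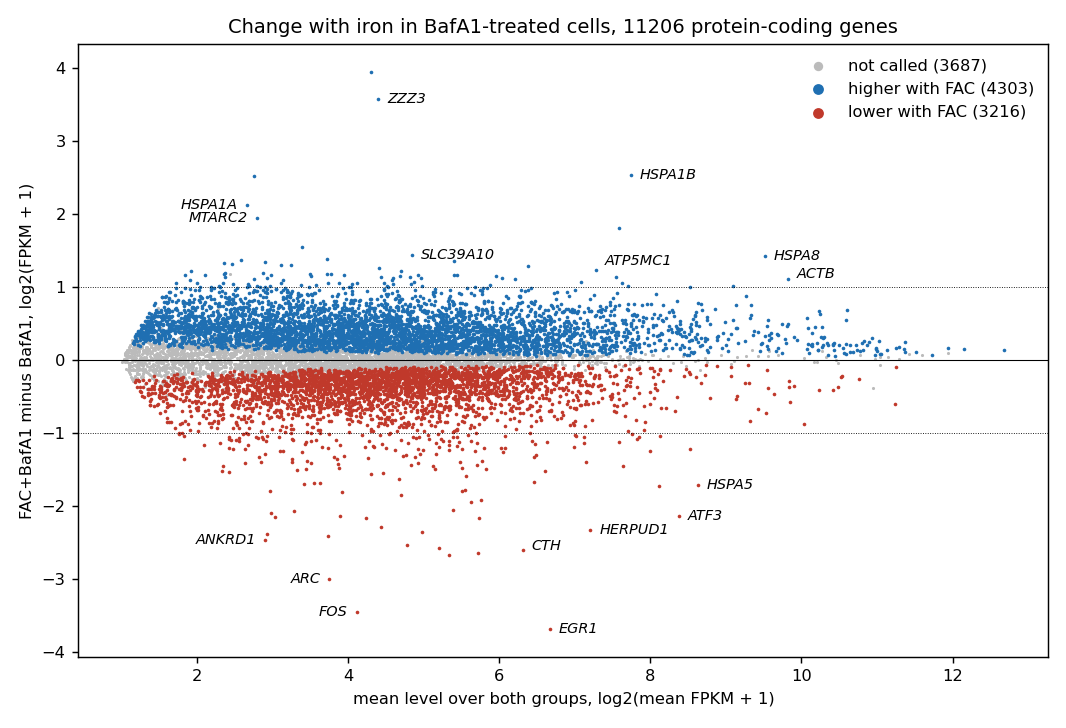
Each point is 1 of 11206 protein-coding genes; the horizontal axis is the mean level over both groups as log2(FPKM + 1) and the vertical axis is FAC+BafA1 minus BafA1 in log2 units. Called genes are blue (4303 higher) or red (3216 lower), dotted lines mark 1 log2 unit, and the named genes include EGR1 and FOS at the bottom and HSPA1B and ZZZ3 at the top.

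Genes of iron handling moved in both directions, and the transferrin receptor was close to equal in both groups. TFRC (chr3:196012511-196082153, GRCh38) stood at 131, 133 and 127 FPKM in the BafA1 libraries and 124, 119 and 124 in FAC+BafA1, so that the groups did not overlap but lay close together (-0.09 ± 0.06 log2 units, SE, adjusted p = 0.223). The difference was not called in the fit of 12 libraries and was called with the 6 libraries fitted alone (adjusted p = 0.0364), after leaving out FAC replicate 3 (adjusted p = 0.0224) and under quantile normalization (-0.17, adjusted p = 0.0373). Without BafA1 the same iron treatment took TFRC from 58.6, 57.2 and 59.1 FPKM in control to 9.39, 9.63 and 11.7 in FAC. Iron thus lowered TFRC by far less, if at all, with BafA1. The iron change with BafA1 minus the iron change without it was 2.32 ± 0.09 log2 units (SE, adjusted p = 4.07e-09), tested as an interaction.

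TFRC messenger RNA carries iron-responsive elements, hairpins that iron regulatory proteins bind when iron is short, which keeps this RNA from decay; in the ferritin messengers the same hairpin, placed ahead of the coding sequence, holds back translation. The hairpins are shown because they are the RNA elements through which iron is known to act on these 3 genes. A search for the loop CAGTGN between 5 paired bases and an unpaired C, with at least 4 of 5 further pairs below it, was run on the untranslated regions of the tested genes (GENCODE release 44, GRCh38). It matched 3 of 9964 genes in the 5′ region (0.0301%; FTH1, FTL and ENC1, a cytoskeletal gene) and 9 of 11143 in the 3′ region (0.0808%), and TFRC was the gene with the most matches, 4. The loop is in capitals in each of these 27-base stretches, all read on the strand of the gene.
TFRC, 3′ untranslated region, chr3:196050980-196051006, minus strand: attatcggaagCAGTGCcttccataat
TFRC, 3′ untranslated region, chr3:196050576-196050602, minus strand: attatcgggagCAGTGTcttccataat
TFRC, 3′ untranslated region, chr3:196050511-196050537, minus strand: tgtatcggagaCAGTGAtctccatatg
TFRC, 3′ untranslated region, chr3:196050464-196050490, minus strand: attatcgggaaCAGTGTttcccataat
FTH1, 5′ untranslated region, chr11:61967575-61967601, minus strand: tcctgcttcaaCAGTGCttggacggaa
FTL, 5′ untranslated region, chr19:48965336-48965362, plus strand: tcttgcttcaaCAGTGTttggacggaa

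Of 21 tested genes of iron uptake, storage and export, 12 were higher and 4 lower with iron (median 0.26; 0.11 under quantile normalization and 0.15 for the 12 members with no shared exon). The 4 lower genes were NCOA4, SLC39A14, PCBP2, an iron chaperone, and IREB2, an iron regulatory protein. Over all genes 38.4% were higher and 28.7% lower, the shares to set beside this and each later list count. Here and below, the few members that went against a list were named after their values were seen. Among receptors, transporters and reductases, SLC11A2, which encodes the divalent metal transporter, was at 16.2, 17.9 and 16.9 FPKM in BafA1 and 17.4, 16.9 and 17.8 in FAC+BafA1. These values overlapped, and the difference was not called (0.03, adjusted p = 0.686). STEAP3, the endosomal ferrireductase, rose from 8.32, 7.89 and 8.48 to 13.8, 13.9 and 14.3 FPKM (0.70 ± 0.05 log2 units, SE, adjusted p = 8.22e-08). SLC39A8, a zinc and iron importer, rose by 0.60, and SLC39A14, a related importer, fell by 0.43 log2 units. SLC40A1, the iron exporter ferroportin, lay below the expression minimum in BafA1 and is not among the genes compared: its values were 0.43, 0.67 and 0.53 FPKM in BafA1 and 1.75, 1.60 and 1.57 in FAC+BafA1.

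Both ferritin chains, which form the iron storage shell, were higher with iron. FTH1, the heavy chain, was at 539, 537 and 581 FPKM in BafA1 and 671, 676 and 643 in FAC+BafA1 (0.26 ± 0.04 log2 units, SE, adjusted p = 4.18e-05). FTL, the light chain, was at 344, 328 and 323 and 389, 397 and 404 FPKM (0.26 ± 0.04 log2 units, SE, adjusted p = 9.15e-05); its call was lost under quantile normalization (0.07, adjusted p = 0.116). Both genes have processed pseudogenes, so the assignment of their reads is uncertain. NCOA4, the receptor that delivers ferritin to lysosomes, fell from 85.5, 85.6 and 86.8 to 60.02, 61.1 and 61.9 FPKM (-0.49 ± 0.03 log2 units, SE, adjusted p = 7.11e-09), and its FAC+BafA1 level was next to the 58.8 of control. HMOX1, which degrades heme and releases its iron, was at 8.13, 7.93 and 7.86 FPKM in BafA1 and 11.7, 10.2 and 11.3 in FAC+BafA1 (0.42 ± 0.07 log2 units, SE, adjusted p = 0.000179), against 21.2 in control and 40.3 in FAC. Among sensors, ACO1, which doubles as iron regulatory protein and cytosolic aconitase, rose by 0.43 log2 units (adjusted p = 1.54e-06).

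**Figure D2:**
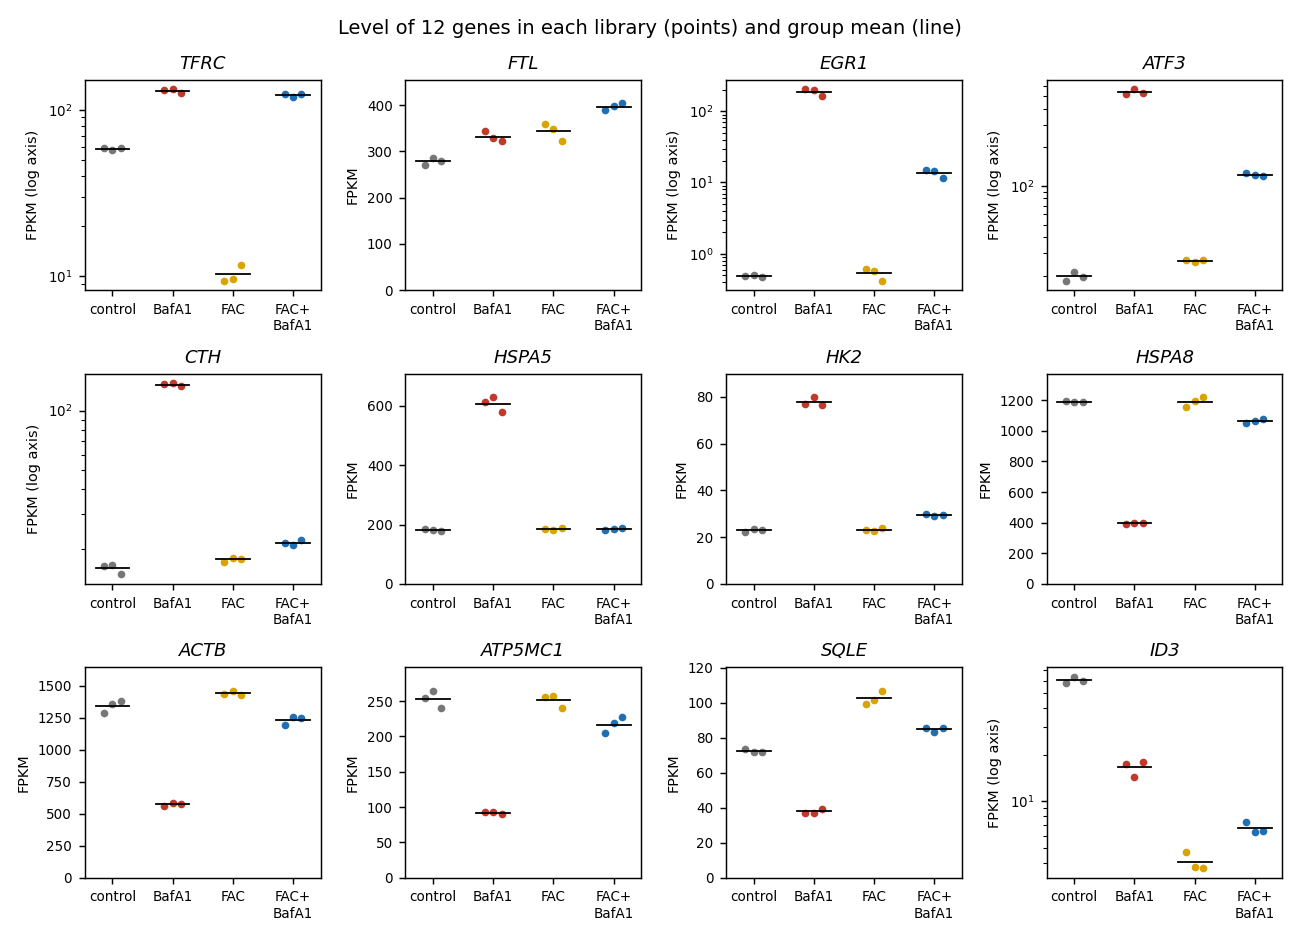
FPKM of 12 genes in each of the 12 libraries (points, 3 per group) with the group mean (line); panels whose values span more than 8-fold have a log axis and the others start at 0. TFRC is nearly as high in FAC+BafA1 as in BafA1, EGR1 and ATF3 fall part of the way to control, HSPA5 reaches the control level, and ID3 is lower in both groups with FAC.

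Immediate early genes, which growth and stress signals switch on within minutes, included the largest decreases. EGR1 (chr5:138465479-138469303, GRCh38), a zinc finger transcription factor, stood at 203, 197 and 164 FPKM in BafA1 and 15.1, 14.6 and 11.6 in FAC+BafA1, 13.7-fold lower (-3.68 ± 0.10 log2 units, SE, adjusted p = 1.06e-11). All FAC+BafA1 libraries remained far above the 0.49, 0.5 and 0.47 FPKM of the control libraries. FOS, which forms AP-1 with JUN proteins, fell from 31.9, 32.9 and 27.5 to 2.19, 1.81 and 1.75 FPKM (-3.44 ± 0.12 log2 units, SE, adjusted p = 1.29e-10). ARC, a neuronal immediate early gene, fell from 24.98, 22.2 and 21.5 to 3.0, 1.87 and 1.35 FPKM (-2.99 ± 0.15 log2 units, SE, adjusted p = 3.61e-09). MYC, a growth-promoting transcription factor, fell from 123, 121 and 109 to 54.4, 53.3 and 54.7 FPKM (-1.10 ± 0.05 log2 units, SE, adjusted p = 5.62e-10), and its libraries with iron lay close to the control values of 50.97, 51.7 and 53.1.

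Of 20 tested immediate early genes 16 were lower and 2, SRF and IER5, higher, with a median of -0.84. The higher calls numbered 1 with median-of-ratios scaling, under quantile normalization and without any of 4 libraries (BafA1 replicates 1 and 2, FAC+BafA1 replicates 1 and 3). IER2, a nuclear early response gene, fell by 1.15 ± 0.04 log2 units. JUND, an AP-1 subunit singled out after its values were seen, was at 22.3, 20.7 and 29.3 FPKM in BafA1 and 28.8, 26.3 and 23.7 in FAC+BafA1; the difference was not called (0.13, adjusted p = 0.322), and control was at 8.24. MAP kinase feedback genes, which here include the ETS factor ETV5 beside phosphatases and inhibitors, were lower in 10 of 12 and higher in 1, DUSP7 (median -0.45). DUSP1, a phosphatase of MAP kinases, fell from 68.96, 72.3 and 67.5 to 21.5, 23.2 and 22.9 FPKM (-1.58 ± 0.05 log2 units, SE, adjusted p = 1.01e-10). ETV5, an ETS factor, fell by 1.39, SPRY1 and SPRY2, inhibitors of receptor tyrosine kinase signalling, by 0.88 and 0.46, and DUSP16, a phosphatase of stress kinases, by 0.85 log2 units. Of the 12 genes, 10 were still higher in FAC+BafA1 than in control, where 14.5% of all genes were.

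The promoter of EGR1 is shown because that gene had the largest decrease. Promoter windows here are the 150 bases before the RefSeq start site (GRCh38.p14), and motifs were searched on both strands in 250 bases before it, over 27305 promoters. The CArG box, the site of serum response factor, is in capitals; it occurred in 1.14% of all promoters, in 2 of 14 immediate early genes found in the promoter table (EGR1 and SRF) and in 5 of 14 actin cytoskeleton genes. ACTG1, whose change went the other way, carries it too.
EGR1, chr5:138465329-138465478, plus strand: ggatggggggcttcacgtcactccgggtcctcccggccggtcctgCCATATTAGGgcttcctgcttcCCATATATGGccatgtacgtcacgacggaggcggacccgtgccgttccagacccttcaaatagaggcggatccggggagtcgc
ACTG1, chr17:81512800-81512949, minus strand: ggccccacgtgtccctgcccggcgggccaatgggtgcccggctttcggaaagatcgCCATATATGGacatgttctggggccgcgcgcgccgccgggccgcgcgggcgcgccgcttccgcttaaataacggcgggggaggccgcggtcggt

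Genes of the ATF4 response, which import and make amino acids and temper stress, had the lowest median of all lists. Of 39 tested genes 37 were lower and 2, ATF5 and ALDH18A1, were not called, with a median of -1.13. CTH (chr1:70411218-70439851, GRCh38), which makes cysteine, fell from 136, 138 and 133 to 21.5, 21.02 and 22.1 FPKM, 6.29-fold (-2.60 ± 0.04 log2 units, SE, adjusted p = 1.08e-13). Control libraries had 16.4, 16.5 and 14.9 FPKM. ASNS, which makes asparagine, fell from 426, 425 and 418 to 129, 128 and 123 FPKM (-1.73 ± 0.03 log2 units, SE, adjusted p = 2.75e-13), a little below the 151, 142 and 139 of control (-0.18 against control, adjusted p = 0.000807). PSAT1, an enzyme of serine synthesis, fell from 303, 314 and 315 to 147, 150.1 and 149.9 FPKM (-1.05 ± 0.02 log2 units, SE, adjusted p = 1.96e-12), and it too was below control (-0.25).

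Among the regulators of this response the median was -2.04, with 9 of 10 lower, and among its transporters -1.20, with all 9 lower. ATF4 itself, the transcription factor, fell by a smaller step, from 939.9, 944 and 882 to 549, 566 and 564 FPKM (-0.72 ± 0.03 log2 units, SE, adjusted p = 7.63e-10). ATF3, a factor it induces, was at 522, 565 and 531 FPKM in BafA1 and 126, 121 and 119 in FAC+BafA1 (-2.14 ± 0.05 log2 units, SE, adjusted p = 2.11e-12), with every library still above the 18.4, 21.4 and 19.7 of control. DDIT3, the stress factor CHOP, fell by 2.64 log2 units, though it shares exon sequence with other entries. CHAC1, which degrades glutathione, fell from 24.3, 18.9 and 21.4 to 3.34, 3.0 and 3.31 FPKM, and SESN2, a stress sensor that restrains mTORC1, from 85.7, 87.1 and 86.1 to 18.9, 18.8 and 17.97. TRIB3, a pseudokinase, fell from 62.8, 65.2 and 57.6 to 9.75, 9.51 and 9.52 FPKM. For these 3 genes FAC+BafA1 was not called against control (0.13, -0.07 and 0.16; adjusted p = 0.332, 0.22 and 0.0945). SLC3A2, the heavy chain of amino acid exchangers, fell from 358, 351 and 366 to 155, 151 and 146 FPKM, and stayed above the 100.5 of control.

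The cytosolic aminoacyl-tRNA synthetases, which charge tRNAs with amino acids, had 14 of 20 lower and 4, HARS1, KARS1, QARS1 and RARS1, higher (median -0.55). Under median-of-ratios scaling and quantile normalization only 1 member was called higher, and 2 were without BafA1 replicate 1, FAC+BafA1 replicate 2 or FAC+BafA1 replicate 3. SARS1 (serine) fell from 283, 279.8 and 265 to 141, 141 and 140.2 FPKM (-0.97 ± 0.03 log2 units, SE, adjusted p = 3.71e-11) and CARS1 (cysteine) from 57.9, 56.4 and 54.4 to 28.2, 27.6 and 29.2. TARS1, WARS1 and IARS1 (threonine, tryptophan and isoleucine) fell by 0.85, 0.76 and 0.62 log2 units. The promoter of ASNS is shown as the window of an amino acid response gene with the element TGATGNAAN, here in capitals. This element was found in 5 of 32 genes of the list with a promoter in the table (ATF3, CHAC1, ASNS, GOT1 and BCAT1) and in 3.18% of all promoters.
ASNS, chr7:97872409-97872558, minus strand: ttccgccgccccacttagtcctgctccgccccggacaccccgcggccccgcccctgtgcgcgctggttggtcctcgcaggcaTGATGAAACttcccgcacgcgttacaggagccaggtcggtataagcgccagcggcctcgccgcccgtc

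The unfolded protein response, which raises chaperones when proteins misfold in the endoplasmic reticulum (ER), was lower with iron in 20 of 22 genes, with a median of -0.85. CALR, an ER lectin chaperone, was called higher (0.07, adjusted p = 0.0352), but not with the replicate block, with median-of-ratios scaling, under quantile normalization, with no filter, with no intensity trend or when any library of the groups compared other than BafA1 replicate 1 was left out. HSPA5 (chr9:125234853-125241382, GRCh38), the main ER chaperone BiP, fell from 611, 629.9 and 579 to 182, 186 and 187 FPKM (-1.71 ± 0.03 log2 units, SE, adjusted p = 2.23e-13). The control libraries were at 186, 183 and 179.9 FPKM, and FAC+BafA1 differed from them by 0.02 (adjusted p = 0.733). XBP1, a transcription factor of the response, fell from 288, 295 and 292 to 109, 105 and 105 FPKM (-1.45 ± 0.02 log2 units, SE, adjusted p = 1.12e-13), against 87.6, 87.6 and 86.7 in control. HERPUD1, which serves the breakdown of ER proteins, fell from 243, 259 and 233 to 46.1, 51.3 and 46.9 FPKM (-2.33 ± 0.05 log2 units, SE, adjusted p = 1.10e-12). DNAJB9, a co-chaperone, fell from 51.8, 52.5 and 51.6 to 9.87, 9.03 and 9.21, and MANF, a secreted ER stress protein, from 321, 323 and 308 to 158, 167 and 163 FPKM. XBP1, HERPUD1 and DNAJB9 remained higher than control by 0.28, 0.29 and 0.51 log2 units, all called.

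The promoter of HSPA5 is shown for its ER stress element, CCAAT and CCACG with 9 bases between them, in capitals. It occurred in 0.0806% of all promoters (22 of 27305) and in 6 of 21 genes of this list: HSPA5, HSP90B1, CALR, CANX, CRELD2 and XBP1.
HSPA5, chr9:125241344-125241493, minus strand: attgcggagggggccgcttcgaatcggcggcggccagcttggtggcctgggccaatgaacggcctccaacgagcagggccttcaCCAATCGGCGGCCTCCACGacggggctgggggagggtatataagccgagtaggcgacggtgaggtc

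Hypoxia-inducible genes were lower with iron in 24 of 43 and higher in 6, with a median of -0.26. VEGFA, an angiogenic growth factor, fell from 46.02, 40.7 and 41.6 to 18.6, 17.3 and 15.2 FPKM (-1.28 ± 0.09 log2 units, SE, adjusted p = 8.72e-08). NDRG1, a gene that iron chelators raise, fell from 81.2, 78.6 and 69.8 to 34.2, 31.2 and 32.8 (-1.20 ± 0.07 log2 units, SE, adjusted p = 1.42e-08), against 18.6, 17.8 and 20.3 in control. HK2, a hexokinase, fell from 76.9, 79.9 and 76.4 to 29.7, 28.9 and 29.4 FPKM (-1.38 ± 0.04 log2 units, SE, adjusted p = 5.68e-12). BNIP3, a mitophagy receptor, fell from 54.05, 57.6 and 60.6 to 32.3, 31.5 and 31.2 FPKM (-0.84 ± 0.06 log2 units, SE, adjusted p = 5.18e-08), and the repressor BHLHE40 by 1.02 log2 units.

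STC2, a secreted glycoprotein, and DDIT4, an inhibitor of mTORC1, also belong to the ATF4 list. STC2 fell from 70.5, 71.5 and 67.9 to 19.9, 19.02 and 19.3 FPKM, and DDIT4 from 68.96, 75.1 and 71.2 to 19.97, 21.4 and 18.9, below the 38.01, 34.5 and 35.1 of control (-0.80, adjusted p = 6.58e-08). SLC2A1, the glucose transporter, fell by 0.88 log2 units. EGLN3, a HIF prolyl hydroxylase that HIF itself raises, went the other way, from 3.95, 2.85 and 3.22 to 4.70, 4.94 and 6.04 FPKM (0.52 ± 0.11 log2 units, SE, adjusted p = 0.000809). The core of the HIF site, ACGTGC, was present in 17 of 36 promoters of the list and in 5.85% of all; BNIP3 is shown as an example with overlapping matches on both strands, in capitals.
BNIP3, chr10:131981924-131982073, minus strand: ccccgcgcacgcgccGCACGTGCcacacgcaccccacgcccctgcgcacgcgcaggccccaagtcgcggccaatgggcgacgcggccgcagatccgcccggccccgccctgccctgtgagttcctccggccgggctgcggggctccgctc

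Oxygenases that need iron and 2-oxoglutarate, which hydroxylate proteins and demethylate histones and nucleic acids, had 12 of 22 lower and 5 higher, among them the collagen hydroxylases PLOD1 and PLOD3 and the demethylase KDM2B (median -0.16). Of all genes 28.7% were lower and 38.4% higher. KDM6A and KDM4A, histone demethylases, fell by 0.79 and 0.66, and EGLN2, a HIF prolyl hydroxylase, and TET1, a DNA dioxygenase, rose by 0.53 and 0.50 log2 units. Of 18 glycolysis genes 8 were higher and 5, HK2, SLC2A1, ALDOC, ENO2 and PGK1, lower (median 0.05), shares near those of all genes. The counts were 6 and 6 with median-of-ratios scaling and 4 higher and 7 lower under quantile normalization, with a median of -0.01 under both. PGAM1, phosphoglycerate mutase, rose from 299, 302 and 298 to 459.9, 482 and 484 FPKM.

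Cytosolic chaperones were among the genes most raised by iron under BafA1. Against control the heat shock list had a median of -0.66 in BafA1, -0.15 in FAC+BafA1 and 1.46e-05 in FAC. HSPA1B, a stress-inducible HSP70, rose from 63.7, 62.98 and 59.9 to 346, 356 and 387 FPKM, 5.84-fold (2.53 ± 0.06 log2 units, SE, adjusted p = 2.82e-12). Its near-identical neighbour HSPA1A rose from 1.08, 1.67 and 1.36 to 8.40, 9.78 and 9.73 FPKM; how reads were split between the pair is uncertain. HSPA8, the constitutive HSP70, rose from 389.5, 399.5 and 398 to 1049, 1063 and 1075 FPKM (1.42 ± 0.02 log2 units, SE, adjusted p = 1.20e-13). Control libraries had 1196, 1188 and 1186 FPKM, and FAC+BafA1 stayed below them (-0.16, adjusted p = 0.000182). HSPE1, the mitochondrial HSP10, DNAJB1, an HSP40, and HSP90AA1 rose by 0.99, 0.97 and 0.57 log2 units. Of 17 heat shock genes 13 were higher and 2, HSF2 and CHORDC1, lower, with a median of 0.53, and 11 were lower in FAC+BafA1 than in control, against 14.4% of all genes. The heat shock element (GAA, TTC and GAA, or TTC, GAA and TTC, with 2 bases between units) was found in 2 of 16 promoters of the list, HSPA8 and CHORDC1, and in 0.439% of all; the window of HSPA8 is shown with the match in capitals.
HSPA8, chr11:123062137-123062286, minus strand: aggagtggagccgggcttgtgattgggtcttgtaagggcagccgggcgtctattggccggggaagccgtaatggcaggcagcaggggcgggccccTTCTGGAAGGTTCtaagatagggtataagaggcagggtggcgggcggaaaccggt

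Genes of the actin cytoskeleton were higher in 11 of 17 and lower in 3, ACTA2, FHL2 and VIM (median 0.38; 0.25 under quantile normalization). ACTB, cytoplasmic actin, rose from 560.0, 586 and 574 to 1194, 1258 and 1245 FPKM (1.10 ± 0.03 log2 units, SE, adjusted p = 1.38e-11), with control at 1284, 1359 and 1378. ACTG1, the other cytoplasmic actin, whose promoter is printed above, rose from 1213, 1178 and 1161 to 1852, 1910.3 and 1967 FPKM. TPM1 and TPM4, tropomyosins, rose by 0.83 and 0.50, and VIM, the intermediate filament protein vimentin, fell by 0.31 log2 units, from 689.5, 688 and 714 to 560.4, 566 and 562 FPKM. ACTB is often used as a reference gene, and here its level differed 2.15-fold between the groups.

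Nuclear genes of the respiratory chain, with those of the ATP synthase counted in, were higher with iron in 39 of 44. The other 5, NDUFS1, NDUFS4, NDUFV1, SDHA and CYCS, were not called. Their median was 0.37, with 0.40 for 20 genes of complex I and 0.34 for 24 genes of complexes II to V. ATP5MC1, a subunit of the ATP synthase rotor ring, rose from 92.7, 92.7 and 90.6 to 204, 219 and 227 FPKM (1.23 ± 0.04 log2 units, SE, adjusted p = 1.35e-10), against 254, 265 and 241 in control. NDUFB3, a complex I subunit, rose from 77.8, 74.8 and 76.9 to 133, 137 and 144 FPKM, and NDUFA1 and NDUFB10 by 0.61 and 0.60 log2 units. ATP5MC3 rose by 0.75. Of the 44 genes, 22 stayed lower in FAC+BafA1 than in control, at a median of -0.13, against 14.4% of all genes. With median-of-ratios scaling or quantile normalization 1 of the 44 was called lower.

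The 13 genes encoded in mitochondrial DNA went the other way: 10 were lower and 3, MT-ATP6, MT-ND5 and MT-ND6, were not called (median -0.38). MT-CO2, a subunit of cytochrome oxidase, was at 2997, 2560.0 and 3142 FPKM in BafA1 and 2109, 1938 and 1682 in FAC+BafA1 (-0.60 ± 0.14 log2 units, SE, adjusted p = 0.00176). MT-ND1, a complex I subunit, was at 727, 564 and 698 and 518, 466 and 386 FPKM. The spread within the groups was wide, and the count fell to 4 without BafA1 replicate 1, BafA1 replicate 3 or FAC+BafA1 replicate 3, to 6 without FAC+BafA1 replicate 2 and to 4 with no filter on low values. Without BafA1 the list median of the iron change was -0.13, with 0 of the 13 called. The interaction was called negative for 2 of the 13, against 22.5% of all genes. For MT-CO2 its call was lost with a pseudocount of 0.1 (-0.50, adjusted p = 0.0518, limma) and under other alternatives. The mitochondrial share of each library given above moves with these 13 genes.

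Genes that build iron-sulfur clusters and heme had 20 of 33 higher and 4, ALAS1, HSPA9, HSCB and ISCA1, lower (median 0.24; 7 lower with median-of-ratios scaling). NFS1, the cysteine desulfurase that supplies sulfur, rose from 13.4, 14.1 and 14.6 to 22.9, 24.2 and 23.8 FPKM (0.71 ± 0.05 log2 units, SE, adjusted p = 4.61e-08). GLRX5, which passes clusters on, and CPOX, a heme synthesis enzyme, rose by 0.46 and 0.42. ALAS1, which starts heme synthesis, fell from 57.4, 57.6 and 54.5 to 34.5, 35.3 and 35.4 FPKM (-0.67 ± 0.04 log2 units, SE, adjusted p = 4.40e-08), and stayed above the 26.5, 29.4 and 29.8 of control. HSPA9, the mitochondrial HSP70, fell by 0.51 log2 units.

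Sterol genes rose almost throughout: 24 of 25 genes of cholesterol synthesis and uptake were higher and 1, SC5D, lower (-0.19), with a median of 0.75. SQLE, which oxidises squalene, rose from 37.3, 37.3 and 39.1 to 85.9, 83.4 and 85.4 FPKM (1.14 ± 0.03 log2 units, SE, adjusted p = 1.88e-11). MSMO1, a sterol oxidase that contains iron, rose from 16.8, 17.9 and 18.8 to 40.4, 41.02 and 41.8 FPKM (1.16 ± 0.04 log2 units, SE, adjusted p = 1.98e-10). INSIG1, which holds back the sterol sensor, rose from 44.6, 47.2 and 46.5 to 100.2, 100.5 and 101 FPKM and so passed the 60.7, 56.3 and 60.1 of control. HMGCS1, which makes the precursor of mevalonate, rose from 53.1, 54.5 and 51.6 to 89.8, 87.1 and 85.95 (0.71 ± 0.03 log2 units, SE, adjusted p = 5.26e-10). FDFT1, squalene synthase, rose by 0.98 log2 units.

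Iron without BafA1 moved these genes in the same direction by less, with a median of 0.32 and 16 of 25 higher than control, against 0.955% of all genes. The interaction was called positive for 17 of the 25 and negative for 1 (31.7% and 22.5% of all genes). For HMGCS1 it was 0.04 (adjusted p = 0.5): iron took it from 51.3 to 82.7 FPKM without BafA1. Fatty acid synthesis and desaturation had 11 of 15 higher and 2 lower, with a median of 0.47 (0.22 for the 8 with no shared exon). The lower members, of which there was 1 without FAC+BafA1 replicate 1, were ACACB and the sterol regulator SREBF1 (-0.65). ELOVL6, an elongase, rose from 14.5, 14.5 and 13.7 to 33.1, 31.1 and 31.8 FPKM (1.12 ± 0.04 log2 units, SE, adjusted p = 1.36e-10). SCD, a desaturase with an iron centre, rose from 104, 104 and 112 to 196, 197 and 200.2, and FASN, fatty acid synthase, from 87.7, 80.4 and 74.8 to 151, 143 and 172 FPKM. ACLY, which makes cytosolic acetyl-CoA, and SCD5 rose by 0.50 and 0.70 log2 units.

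**Figure D3:**
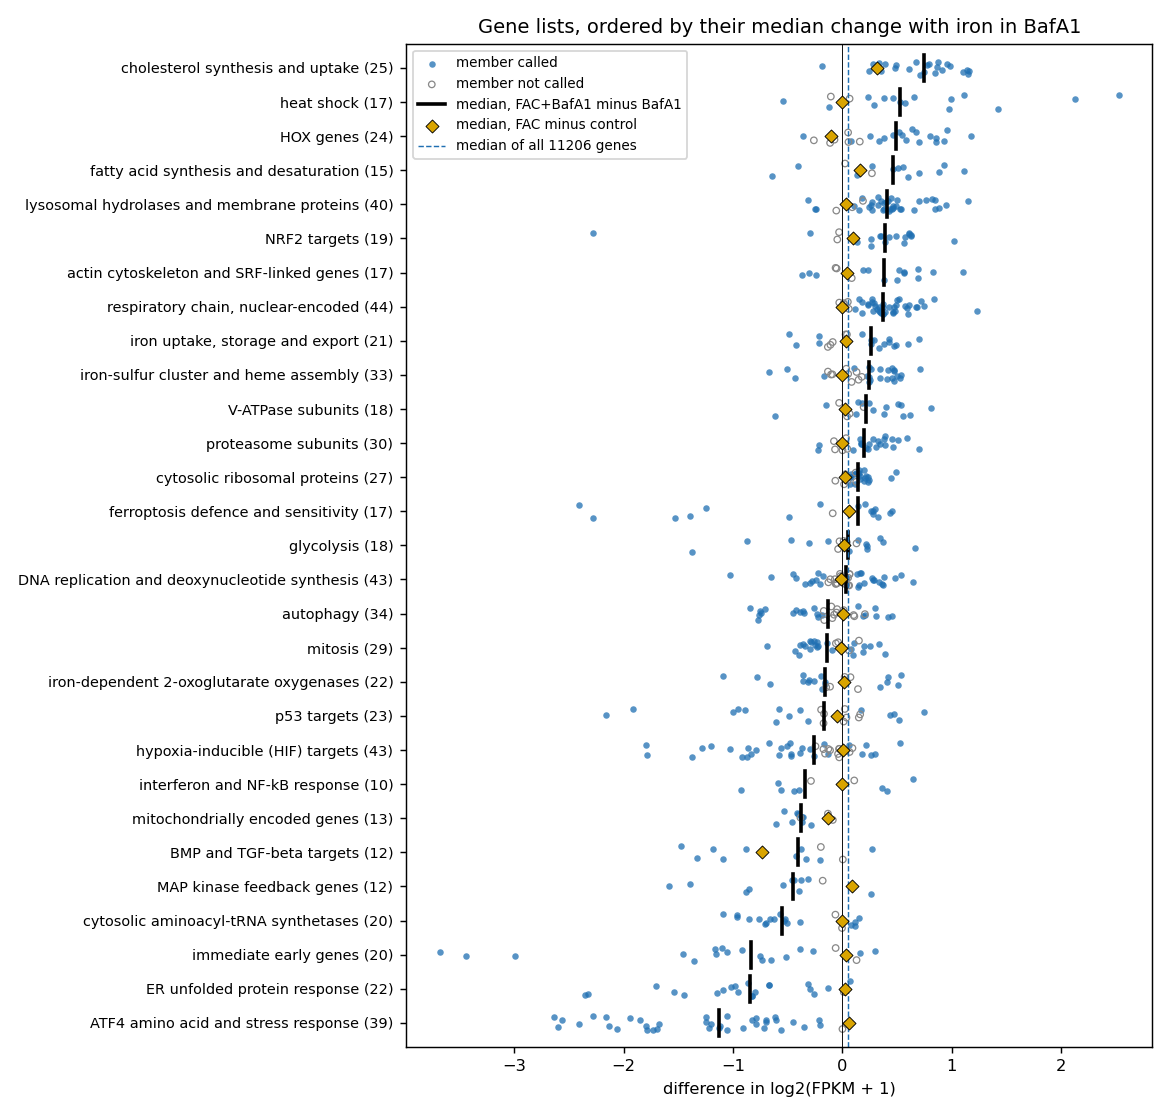
Members of the gene lists, without the marker lists and the metallothionein list, by FAC+BafA1 minus BafA1 in log2(FPKM + 1). Each gene is 1 point (filled where called), with list sizes in brackets. Black bars are list medians, diamonds are list medians of FAC minus control, and the dashed line is the median of all 11206 genes. Medians run from -1.13 for the ATF4 list to 0.75 for the cholesterol list, while the diamonds lie near 0 for nearly all lists except the cholesterol and BMP lists.

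Lysosomal genes were mostly higher with iron. Of 40 hydrolases and membrane proteins 34 were higher and 3, NPC1, SLC38A9 and TMEM192, lower, with a median of 0.41; for the 29 hydrolases, 26 were higher at a median of 0.45. PPT1, which removes fatty acids from proteins, rose from 52.3, 57.3 and 53.6 to 106, 106 and 106 FPKM (0.95 ± 0.03 log2 units, SE, adjusted p = 1.78e-10), against 108, 108 and 105 in control. CTSB, cathepsin B, rose from 16.7, 16.6 and 17.5 to 32.03, 31.7 and 32.3 FPKM. CD63, a lysosomal tetraspanin, rose from 129, 126 and 129.9 to 223, 236 and 236 FPKM (0.85 ± 0.03 log2 units, SE, adjusted p = 9.85e-11), above the 180.5, 181 and 173 of control. LAMP1, a lysosomal membrane glycoprotein, rose by 0.82, and CTSD, cathepsin D, by 0.54 ± 0.06 log2 units.

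The subunits of the V-ATPase itself had 12 of 18 higher and 2, ATP6V0A2 and ATP6V1D, lower (median 0.22; 9 higher with median-of-ratios scaling). ATP6V0B rose from 99.5, 97.7 and 94.04 to 137, 145 and 142 FPKM and ATP6AP1, an accessory subunit, from 63.3, 63.6 and 63.01 to 86.9, 90.3 and 94.05, both above their control means of 118 and 77.4. ATP6V0E1, ATP6V0E2 and ATP6V1F rose by 0.56, 0.81 and 0.38 log2 units. Autophagy genes had 15 of 34 lower and 7 higher (median -0.13; 3 higher with median-of-ratios scaling). Among all genes in the main fit 28.7% were lower and 38.4% higher. CALCOCO2, an autophagy receptor, fell from 114, 118 and 110.2 to 61.8, 65.3 and 62.5 FPKM (-0.84 ± 0.05 log2 units, SE, adjusted p = 1.57e-08). RB1CC1 and PIK3C3, which start autophagosome formation, fell by 0.75 and 0.71, TAX1BP1, another receptor, by 0.45, and GABARAPL2, a membrane-linked autophagy protein, rose by 0.41 log2 units. SQSTM1, the receptor p62, was at 73.01, 73.2 and 72.7 FPKM in BafA1 and 74.8, 72.9 and 72.96 in FAC+BafA1, which overlap (0.01, adjusted p = 0.783), and at 46.6, 47.1 and 45.4 in control.

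Targets of BMP signalling, which in liver reports iron stores to the hormone hepcidin, were mostly lower with iron, both with and without BafA1. ID3, an inhibitor of helix-loop-helix factors, was at 17.3, 14.3 and 18.1 FPKM in BafA1 and 7.31, 6.31 and 6.45 in FAC+BafA1 (-1.19 ± 0.09 log2 units, SE, adjusted p = 2.47e-07). It was at 58.04, 63.5 and 59.6 in control and 4.70, 3.79 and 3.70 in FAC, so the step with iron was smaller with BafA1 (interaction 2.42 ± 0.13 log2 units, SE, adjusted p = 6.49e-08). ID2 fell from 68.8, 66.4 and 62.95 to 24.4, 21.6 and 23.4 FPKM with BafA1 and was at 113 and 24.8 without it. ID4 fell from 42.05, 41.9 and 40.6 to 16.4, 15.2 and 16.1 FPKM, a larger step than without BafA1 (interaction -0.61, adjusted p = 3.23e-05). Of 12 BMP and TGF-beta targets 9 were lower and 1, BAMBI, higher with BafA1 present (median -0.40; -1.14 for the 6 members with a mean of at least 5 FPKM, of which 5 were lower and 0 higher), and 9 were lower in FAC than in control (median -0.73), against 0.999% of all genes. SMAD9, a BMP effector, fell by 0.43, and CCN1, a matrix protein, by 1.09 log2 units, the latter with -0.06 in FAC against control (adjusted p = 0.765). Of 4 tested genes of the metallothionein and zinc response, SLC30A1, a zinc exporter, fell by 0.41. MT2A, a metallothionein, was at 9.74, 10.7 and 8.85 FPKM in BafA1 and 10.7, 12.3 and 12.2 in FAC+BafA1, which overlap; its call (0.24, adjusted p = 0.0301) was lost with median-of-ratios scaling, with no filter on low values, and without any of 4 of the 6 libraries of the groups compared (adjusted p = 0.0619 to 0.122).

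HOX genes, which set position along the body axis and differ in use between tissues, were higher in 17 of 24 and lower in 1, HOXD10 (median 0.49). HOXA13 rose from 2.47, 1.70 and 2.33 to 6.30, 5.94 and 6.04 FPKM (1.17 ± 0.10 log2 units, SE, adjusted p = 4.29e-07), against 9.63, 10.9 and 10.99 in control, and HOXA9, HOXA10 and HOXB6 rose by 0.80, 0.85 and 0.67 log2 units. Of 15 members with a mean of at least 5 FPKM 9 were higher (median 0.25). Most HOX genes share exon sequence with another entry, and the median was 0.21 for the 6 that do not. The count of lower members was 2 with median-of-ratios scaling and under quantile normalization and 3 without BafA1 replicate 2. The neurofilament gene NEFM fell from 107, 107 and 92.6 to 65.6, 65.5 and 61.6 FPKM.

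Of 43 genes of DNA replication and deoxynucleotide synthesis 16 were higher and 11 lower (median 0.04), shares near those of all genes (38.4% and 28.7%). The counts were 13 and 17 with median-of-ratios scaling, where the median was -0.02, and the median was -0.01 under quantile normalization and 0.01 to 0.02 without BafA1 replicate 1, BafA1 replicate 2 or FAC+BafA1 replicate 1. CDC6, a replication licensing factor, fell from 174, 169 and 171 to 81.04, 85.5 and 84.9 FPKM (-1.02 ± 0.03 log2 units, SE, adjusted p = 6.38e-11). RRM2, the iron-dependent subunit of ribonucleotide reductase, was at 148, 148 and 158 and 162, 169 and 167 FPKM; its call (0.13, adjusted p = 0.00202) was lost with median-of-ratios scaling and quantile normalization. GINS2 and RPA1 rose by 0.65 and 0.53, and RFC1 fell by 0.65 log2 units. Of 29 mitosis genes 16 were lower and 8 higher (median -0.14; -0.23 under quantile normalization, and 5 higher with median-of-ratios scaling); NDC80, a kinetochore protein, fell by 0.69, and TTK, TPX2, TOP2A and BUB3 by 0.39, 0.36, 0.29 and 0.23.

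The other stress lists were divided, and they share members with lists above. Of 23 p53 targets 10 were lower and 5, BAX, FAS, FDXR, PHLDA3 and TIGAR, higher (median -0.17; -0.35 at a mean of at least 5 FPKM, where 3 of 16 were higher, and -0.28 for the 10 with no shared exon). In the main fit 28.7% of all genes were lower and 38.4% higher. SESN2, given above with the ATF4 response, is also a p53 target here and had the lowest value of that list (-2.16). GADD45A, a growth arrest gene, fell from 80.8, 84.5 and 87.6 to 25.04, 21.4 and 18.7 FPKM (-1.92 ± 0.09 log2 units, SE, adjusted p = 1.55e-09) and CDKN1A, the inhibitor p21, from 40.2, 39.1 and 37.02 to 18.8, 20.1 and 19.7. TNFRSF10B, a death receptor, fell by 0.89, and BAX, a cell death effector, rose by 0.74 log2 units. Of 19 NRF2 targets 15 were higher and 2, SLC7A11 and GCLC, lower (median 0.39). The NRF2 list also holds HMOX1 and FTH1, given above with the iron genes. PRDX1, a peroxiredoxin, rose from 349.7, 356 and 372 to 725, 729 and 729.9 FPKM (1.02 ± 0.03 log2 units, SE, adjusted p = 9.12e-12), and TXN, thioredoxin, TALDO1, a pentose phosphate enzyme, and EPHX1, an epoxide hydrolase, rose by 0.61, 0.62 and 0.62. SLC7A11, the cystine importer, is in this list and the ATF4 list; it fell from 34.3, 35.7 and 35.2 to 6.22, 6.60 and 6.42 FPKM.

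Ferroptosis is a form of death driven by iron and lipid peroxides. Of 17 genes listed for ferroptosis defence and sensitivity 9 were higher and 7 lower, but 6 and 7 with median-of-ratios scaling and 8 and 8 under quantile normalization. In the main fit 38.4% of all genes were higher and 28.7% lower. The members that fell most were CHAC1, SLC7A11, PTGS2, a prostaglandin synthase (-1.53), SAT1, a polyamine enzyme (-1.39), and SLC3A2, of which CHAC1, SLC7A11 and SLC3A2 are also in the ATF4 list. Of 10 interferon and NF-kB genes 5 were lower, ISG15 among them, and 3 higher, NFKBIE among them. RELB, NFKB1, NFKB2 and NFKBIA, members and inhibitor of the NF-kB family, fell by 0.93, 0.56, 0.45 and 0.39, and IFI6, an interferon-induced gene, rose by 0.65 log2 units. Of 27 cytosolic ribosomal proteins 21 were higher (median 0.15), but 9 higher and 1 lower with median-of-ratios scaling (median 0.08) and 9 and 3 under quantile normalization (median 0.03). RPS15 rose from 757, 758 and 735 to 1037, 1049 and 1069.5 FPKM, RPL35 by 0.45, RPS23 by 0.24 and RPL6 and RPL15 by 0.20 and 0.20 log2 units. Of 30 proteasome subunits 21 were higher and 2, PSMD12 and PSMD14, lower (median 0.20; 5 lower with median-of-ratios scaling, and 7 lower and a median of 0.13 under quantile normalization). PSMA7 rose from 127, 121 and 126 to 207, 203 and 199 FPKM, and PSMB6, PSMA4, PSMD2 and PSMB5 by 0.59, 0.46, 0.46 and 0.39 log2 units.

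The size of the iron change depended on BafA1. The interaction, which is the iron change with BafA1 minus the iron change without it, was called for 6078 genes (54.2%), 3552 positive and 2526 negative. Without BafA1 219 genes were called for iron (113 to 433 over the filters and entry sets tried), and across genes the standard deviation of the iron change was 0.43 with BafA1 and 0.13 without. The pair of iron comparisons shares no library. Of the 219 genes, 113 (51.6%) were called in the same direction with BafA1, which is 1.5% of the calls made with BafA1, and 66 were called in opposite directions. Over all 11206 genes 38.4% were called higher and 28.7% lower with BafA1, so opposite calls in this number do not set the 219 genes apart. Of 262 genes that iron changed by at least 1 log2 unit with BafA1, 7 also changed by that much without it (over all genes 0.0268% upward and 0.0803% downward), all in the same direction: ZZZ3, ENSG00000260914 and ENSG00000256646 upward and ID2, ID3, the ubiquitin ligase MARCHF2 and the actin regulator CARMIL2 downward. NCOA4, ATF3 and SLC7A11 were each higher with iron alone (0.26, 0.39 and 0.28) and lower with iron under BafA1.

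**Figure D4:**
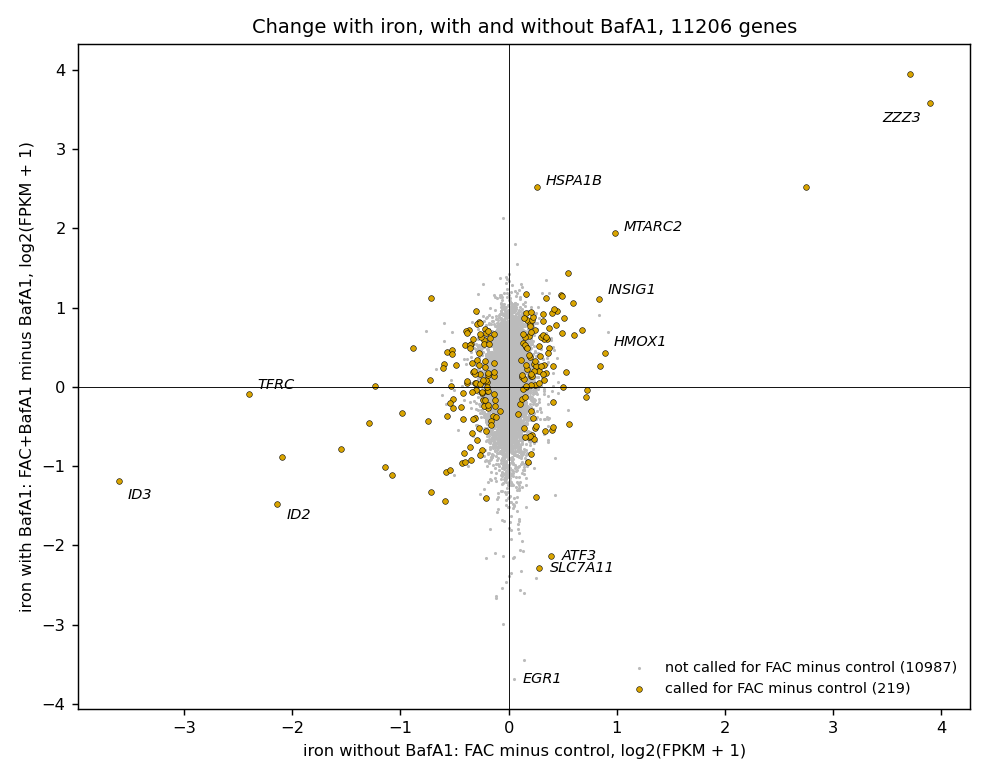
The iron change of each of 11206 genes without BafA1 (horizontal, FAC minus control) against that with BafA1 (vertical, FAC+BafA1 minus BafA1), both in log2(FPKM + 1) units, with the 219 genes called without BafA1 outlined in yellow. Most genes spread along the vertical axis; TFRC lies far to the left at almost no change with BafA1, and ZZZ3 lies far out on both axes.

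Levels relative to control are given for both groups with BafA1. FAC+BafA1 differed from control in 3235 of the 11206 genes (28.9%), 1625 higher and 1610 lower, and BafA1 from control in 8077 (72.1%); these comparisons share the control libraries with each other and 3 libraries each with the iron comparison. Against control the ATF4 list had a median of 1.12 in BafA1 and 0.02 in FAC+BafA1, and the unfolded protein response 0.97 and 0.10. Immediate early genes had 1.49 and 0.61, and MAP kinase feedback genes 1.31 and 0.86. HIF targets stood at 0.46 and 0.15, and heat shock genes at -0.66 and -0.15. For sterol genes the sign turned, from -0.35 to 0.23, as it did for lysosomal genes, from -0.22 to 0.11. In the ATF4 list 13 of 39 genes were higher than control in FAC+BafA1 and 6 lower. Over all genes 14.5% were higher and 14.4% lower, so the lower share of the list was near that of all genes.

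**Figure D5:**
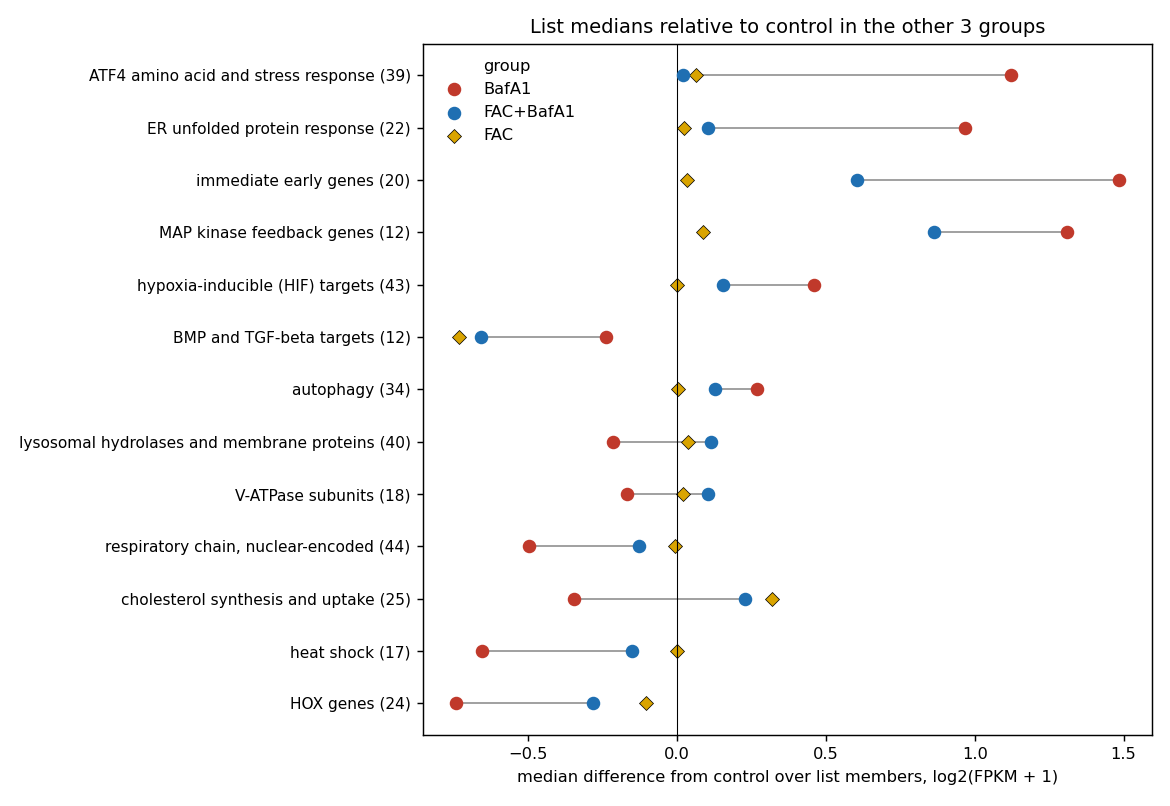
Median difference from control, in log2(FPKM + 1), over the members of 13 gene lists (sizes in brackets) for BafA1 (red), FAC+BafA1 (blue) and FAC (yellow diamonds); a grey line joins the groups with BafA1. The blue points are nearer to 0 than the red ones in most lists, with the BMP list as the exception, where FAC and FAC+BafA1 lie together at -0.73 and -0.66.

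Beyond the lists, the largest single changes included genes of several kinds. Among genes that share no exon with another gene, the 12 largest decreases that were called with no overlap of library values were EGR1, FOS, ARC, GADD45B, CTH, TRIB3, ANKRD1, CHAC1, TCIM, DNAJB9, HERPUD1 and SESN2. GADD45B, a stress-induced growth arrest gene, fell from 75.9, 68.3 and 62.4 to 10.8, 9.41 and 9.87 FPKM. ANKRD1, a muscle repeat protein and target of YAP, fell from 11.7, 11.96 and 11.3 to 1.26, 1.21 and 1.40 FPKM (-2.47 ± 0.08 log2 units, SE, adjusted p = 7.15e-11). TCIM, a regulator of Wnt signalling, fell from 11.9, 11.7 and 11.7 to 1.35, 1.54 and 1.46 FPKM; its control libraries were at 0.11, 0.15 and 0.07. With shared exon sequence, and so uncertain, DDIT3, C11orf96, SLC7A11 and TVP23C had the largest decreases, C11orf96 from 44.98, 44.8 and 47.8 to 8.24, 7.12 and 5.98 and TVP23C from 29.2, 30.3 and 30.2 to 6.48, 5.28 and 5.98 FPKM.

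The largest increases on the same terms included ZZZ3, HSPA1A, MTARC2, SLC39A10, CBX2, LRRC20, GPC1, COL4A1, ATP5MC1, NOTCH3 and CAV2. ZZZ3, a histone reader, was at 2.28, 2.10 and 2.45 FPKM in BafA1 and 38.2, 37.5 and 38.4 in FAC+BafA1, and at 1.26, 1.44 and 1.39 in control and 34.5, 32.2 and 35.9 in FAC. The difference thus follows FAC with or without BafA1, as the filling of entries described above does, and its source was not tested. SLC39A10, a zinc importer, rose from 14.2, 14.4 and 15.1 to 40.3, 40.5 and 41.8 FPKM (1.43 ± 0.03 log2 units, SE, adjusted p = 3.14e-12), above the 24.5, 23.7 and 24.6 of control. MTARC2, a molybdenum enzyme of the mitochondrial membrane, rose from 1.83, 1.55 and 2.25 to 9.36, 11.6 and 9.20 FPKM (1.94 ± 0.14 log2 units, SE, adjusted p = 9.85e-08), also above control (5.88, 4.54 and 4.11). CBX2, a Polycomb subunit, rose from 6.50, 6.28 and 6.15 to 17.8, 17.4 and 18.8 FPKM, LRRC20, a leucine-rich repeat gene, from 2.40, 2.21 and 2.44 to 7.27, 8.01 and 7.73, and COL4A1, a basement membrane collagen, from 2.20, 2.04 and 2.26 to 6.72, 6.88 and 6.95. GPC1, a cell surface proteoglycan, NOTCH3, a receptor of the Notch pathway, and CAV2, a caveolin, rose by 1.34, 1.22 and 1.19 log2 units. Among genes with shared exon sequence ARHGDIA rose from 94.8, 76.6 and 82.7 to 289, 293 and 309.7 FPKM, and the unnamed entries ENSG00000260914 and ENSG00000256646 from 1.44, 1.81 and 1.04 to 35.1, 35.2 and 37.95 and from 1.06, 1.36 and 0.65 to 9.80, 11 and 10.6. Both of these entries also moved with FAC alone (3.72 and 2.75).

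The expression minimum left out protein-coding genes that reached 1 FPKM in only 1 of the groups, 374 in FAC+BafA1 and 171 in BafA1. The 5 with the largest difference each way all followed FAC rather than BafA1 and are given as values. ENSG00000257411, which shares exons with ERBB3 and PA2G4, was at 0.18, 0.18 and 0.64 FPKM in BafA1 and 82.9, 80.9 and 82.9 in FAC+BafA1, and NPIPA9 was listed at 0 in all 3 BafA1 libraries and at 46.6, 44.3 and 40.4 in FAC+BafA1. ENSG00000272921, ENSG00000144785 and ENSG00000272617 were listed at 0 in BafA1 and at means of 40.0, 25.2 and 24.1 FPKM in FAC+BafA1. On the other side the entry ENSG00000258724, which shares exons with PINX1 and SOX7, was at 20.99, 22.3 and 20.3 FPKM in BafA1 and 0.07, 0.12 and 0.12 in FAC+BafA1, ENSG00000274322 at 25.98, 26.7 and 20.2 and 0.09, 0.03 and 0.04, and OR4M2B, PWWP4 and ENSG00000272741 had means of 17.7, 13.7 and 8.05 FPKM in BafA1 and were listed at 0 in FAC+BafA1. All 10 were high or near 0 in control as in BafA1, and in FAC as in FAC+BafA1. At the minimum itself FOSB, with means of 4.12 and 1 FPKM in BafA1 and FAC+BafA1, was just inside, and ADAM8, with means of 0.997 and 1.05, just outside.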

How the data were processed

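RNA of HEK293T cells was sequenced after a stranded mRNA library kit, per the labels' protocols, and the authors deposited FPKM per gene and library. The submitters' processing notes name STAR, RSEM and GRCh38; the sources used here give no versions, annotation release or read depth, so precision rests on the replicates. Gene types, positions and exon overlaps were taken from GENCODE release 44, and promoters from RefSeq.

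Values were analysed as log2(FPKM + 1), a scale that understates changes of low genes. All 12 libraries entered 1 limma fit (limma 3.58.1, R 4.3.3, intensity trend) over 13704 entries that averaged 1 FPKM or more over all libraries or in both groups with BafA1, with Benjamini-Hochberg adjustment over all of them and a threshold of 0.05. The same fit gave the contrast of FAC+BafA1 with BafA1, its difference from FAC minus control, and each group against control. Genes were compared at a mean of at least 1 FPKM in each of the 2 groups. In simulated data, 76 of 100 entries changed by 0.5 log2 units were called in the right direction, and 93 of 100 changed by 1. There were 4 false calls. Few of the 13704 entries were changed there, while 67.1% of genes were called here, so the simulation does not cover data in which most genes differ.

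The members and gene lists were chosen with earlier results of these data known. Genes named were the 12 largest changes each way without shared exon sequence and the 4 largest with it, called and with no overlap of libraries, up to 5 such members of each list by adjusted p, genes set by name, and the 5 largest differences each way among genes above the minimum in 1 group alone; a few of these genes are not reported here. Same-numbered libraries of the 2 groups correlated in their deviations at 0.0264, 0.0436 and -0.0495, so the numbers were not used as pairs. Alternatives covered the pseudocount, the filter, median-of-ratios and quantile scaling, the trend, the samples and entries fitted, shared exons, a replicate block and leaving out each library.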

Additional observations from a re-analysis of the deposited data

Results flagged for a closer look

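The change brought by iron differed with and without BafA1, by a test of that difference, for 6078 of 11206 genes, with 3552 more positive and 2526 more negative under BafA1. Among the genes set by name, the iron change was more negative with BafA1 for EGR1 (-3.73), FOS (-3.59), CHAC1 (-2.66), DDIT3 (-2.52), ASNS (-1.81), HSPA5 (-1.72), VEGFA (-1.37), NDRG1 (-1.01), BNIP3 (-0.82), ATF4 (-0.80), HMOX1 (-0.47) and SQSTM1 (-0.15), in log2 units. It was more positive for TFRC (2.32), HSPA1B (2.27), NFS1 (0.74), EGLN3 (0.69), CTSD (0.49), FTH1 (0.38), SLC11A2 (0.29) and RRM2 (0.17). The smallest of these calls were lost under some alternatives. Under median-of-ratios scaling those of SLC11A2 (0.23, adjusted p = 0.0571) and RRM2 (0.10, adjusted p = 0.0789) missed the threshold, as did RRM2 under quantile normalization (0.08, adjusted p = 0.132). SQSTM1 was lost without control replicate 3, FAC replicate 1, FAC replicate 2, FAC+BafA1 replicate 2 or FAC+BafA1 replicate 3 (-0.14 to -0.12, adjusted p = 0.0528 to 0.061, limma). HMOX1, the heme-degrading enzyme, rose with iron both with BafA1 (0.42) and without it (0.89), by less with BafA1. A total of 66 genes were called in opposite directions by the pair of iron comparisons, among them NCOA4, ATF3 and SLC7A11. With BafA1, 38.4% of all genes were called higher and 28.7% lower. Opposite calls in this number thus do not set the genes called for iron alone apart.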

How the results depend on the processing

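Of the 178 named genes, all kept the direction and side of the threshold for FAC+BafA1 against BafA1 with a pseudocount of 0.1, with no intensity trend and with the replicate block; the block called 7436 genes in place of 7519. At a mean of at least 5 FPKM, 166 were testable and did the same. Genes called and higher by at least 1 log2 unit numbered 198 with a pseudocount of 0.1, 49 at a mean of at least 5 FPKM and 156 with no filter, against 86. FAC against control had 126 calls at a mean of at least 5 FPKM, 433 with no filter and 113 with protein-coding genes fitted alone, against 219. The cause was not tested. With median-of-ratios scaling the uncalled differences of SLC11A2 and SQSTM1 turned to -0.032 and -0.0525, and SQSTM1 was -0.0288 under quantile normalization. Uncalled interactions that turned were HMGCS1 (-0.033 with median-of-ratios scaling) and SLC30A1 (-0.041 with median-of-ratios scaling and -0.0353 under quantile normalization).

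Leaving out each library in turn gave 6976 to 7602 calls, 4017 to 4345 higher and 2959 to 3257 lower, with 83 to 101 and 172 to 181 past 1 log2 unit. The interaction had 5669 to 5867 calls, 3325 to 3478 positive and 2344 to 2451 negative. Against control, FAC+BafA1 had 2495 to 3291 calls, FAC 170 to 255 and BafA1 7623 to 8115. Signs that turned without a library were SLC11A2 (-0.00229 to 0.0644), SQSTM1 (-0.000482 to 0.0176) and the interaction of SLC30A1 (-0.0363 to 0.0682), none of them called. Leaving out a library with 2 left in its group relies on the spread pooled over groups. The depth of the libraries is unknown, so what low values can resolve is set by the replicates.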
